A study of Rattus norvegicus with 24 samples.

Results

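The mitochondrial respiratory chain genes studied here are the nuclear genes whose names begin with Nduf, Uqcr, Cox4 to Cox8 or Atp5, with Sdha, Sdhb, Sdhc and Sdhd. They were followed on 24 Agilent single-colour arrays of RNA extracted from rat left dorsal striatum. The array design named 90 such genes. To be kept, a gene needed a probe well above background on 4 or more of the 8 arrays in some treatment group. Each was then represented by its kept probe with the highest mean. This left 89 members of 20902 genes in all. Of the 89, 86 were well above background on all 24 arrays. Cox8c, an isoform of a complex IV subunit known from testis, reached that mark on 0 of 24 arrays and was left out. Just inside the filter lay Cox7b2, with 3 saline, 5 acute and 3 chronic arrays, followed by Ndufa4l2 with 21 of 24 arrays and Ndufaf1 with 23.

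Rats were male Long Evans animals, 80 to 90 days old, and all had 5 daily intraperitoneal injections. In the saline group every injection was saline. The acute group had saline on the first 4 days and MDPV (methylenedioxypyrovalerone), a synthetic cathinone that blocks dopamine and noradrenaline uptake, on the last. The chronic group, called repeated in parts of the labels, had MDPV on all 5 days, at the same dose of 1 mg/kg. Brains were removed 24 h after the last injection in all 3 groups. Each group had 8 arrays, and the 24 arrays were spread over 3 slides. The series design gives 6 per group. Some titles are the letter H with a running number, and each of these arrays was kept as a single sample. The other titles are a letter from A to F with a digit. To reach the number of the design, the 2 arrays of each of those letters were averaged, which gave 6 samples a group. Sharing a letter refers below to the letters A to F only. Each group thus held both single arrays and means of 2 arrays, weighted alike in the fit. The 2 arrays of a letter lay on different slides in every case. The values gave no sign that arrays sharing a letter are alike: limma's consensus correlation within letters was -0.37. Saline replicates 2 and 5, which share a letter, had choroid plexus marker levels of -3.68 and -0.22. Acute replicates 4 and 6, which also share a letter, were close in these levels, at -2.55 and -2.54. With the 24 arrays as independent samples 0 of the 89 genes passed the adjusted threshold too, and 44, 55 and 47 had differences below 0 in acute minus saline, chronic minus saline and chronic minus acute. No label ties an array to an animal, so p-values measure the spread between these samples, which may be partly technical.

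The respiratory chain sits in the inner mitochondrial membrane. Complex I (NADH dehydrogenase) and complex II (succinate dehydrogenase, which is also an enzyme of the tricarboxylic acid cycle) pass electrons to ubiquinone, complex III passes them to cytochrome c, and complex IV (cytochrome c oxidase) passes them to oxygen. Complexes I, III and IV pump protons, and complex V (ATP synthase) lets the protons back through a rotating ring of c subunits to make ATP. All but complex II also hold subunits encoded by mitochondrial DNA, and no probe carried any of the 26 names listed for those genes. Neurons of the striatum, the forebrain region that receives dense dopamine input, depend on this supply of ATP to hold their ion gradients.

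The 89 members fell into 37 genes of complex I, 4 of complex II, 8 of complex III, 14 of complex IV and 15 of complex V by their array names, and 11 that are not subunits. The last set held 7 complex I assembly factors (Ndufaf1 to Ndufaf7), Cox7a2l, Atp5s, Atp5sl and the pseudogene Cox6c-ps1. Ndufa4 is filed with complex I by name, although it is now counted as a subunit of complex IV. Cox6c and Cox6c-ps1 are near-identical copies, and Ndufa10 and Ndufa10l1 share a locus, so hybridisation may be shared within each pair.

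Expression values are log2 of the background-subtracted signal minus the 75th percentile of the array, so a value of 0 is the level of the array's 75th percentile spot. Differences are the first group minus the second and were tested with limma over all 20902 genes, with Benjamini-Hochberg adjustment. The levels of different probes are not compared with each other, since a probe's brightness also depends on its sequence. In bulk tissue, fewer cells of a type and less RNA per cell cannot be told apart.

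None of the 89 members differed between treatment groups after adjustment. The adjusted p was below 0.05 for 0 members and for 0% of all genes in each comparison, and the smallest adjusted p of a member was 1.00 for acute minus saline, 0.999 for chronic minus saline and 0.960 for chronic minus acute. In the F test over the 3 groups the smallest adjusted p of a member was 0.997, and 0 members passed at an unadjusted p below 0.05, as 1.71% of all genes did. At an unadjusted p below 0.05, 0 members passed in acute minus saline, where 1.59% of all genes did (0.966% lower and 0.627% higher), and 0 in chronic minus saline, where 2.87% did (1.35% lower and 1.51% higher). In chronic minus acute 4 members passed, or 4.49%, against 2.48% of all genes. All 4 were lower in the chronic group, a direction in which 0.866% of all genes passed, and 1.62% passed in the other. For no member did the 6 samples of a group lie wholly above or below those of another group (0.0287%, 0.0478% and 0.182% of all genes in the 3 comparisons). The limits on the changes were narrow for most members. The 95% interval of the difference lay within 1.5-fold either way for 86 of 89 members in acute minus saline (76% of all genes), 85 in chronic minus saline (74.9%) and 87 in chronic minus acute (75.3%).

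The direction of the small differences was not the same in the 3 comparisons. In acute minus saline the difference was below 0 for 41 of 89 members, with a median of 0.004, and it was below 0 for 50.9% of all genes. In chronic minus saline it was below 0 for 57 members, with a median of -0.023, against 43.5% and a median of 0.020 over all genes. In chronic minus acute it was again below 0 for 57 members, with a median of -0.029, against 43.5% and a median of 0.024 over all genes. Each pair of comparisons shares a group, so these counts are not independent of each other. They also depended on how the arrays were scaled. With quantile normalization 51 members were below 0 in chronic minus saline and 45 in chronic minus acute, and 44 and 43 with the authors' deposited value table. With normexp background correction and quantile normalization they numbered 44 and 48. The share of all genes below 0 in chronic minus acute was 45.6%, 45.2% and 46.8% in these settings. With normexp correction and the 75th percentile, 52 and 56 members were below 0 in chronic minus saline and chronic minus acute, when 67.8% and 60.8% of all genes were.

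**Figure D1:**
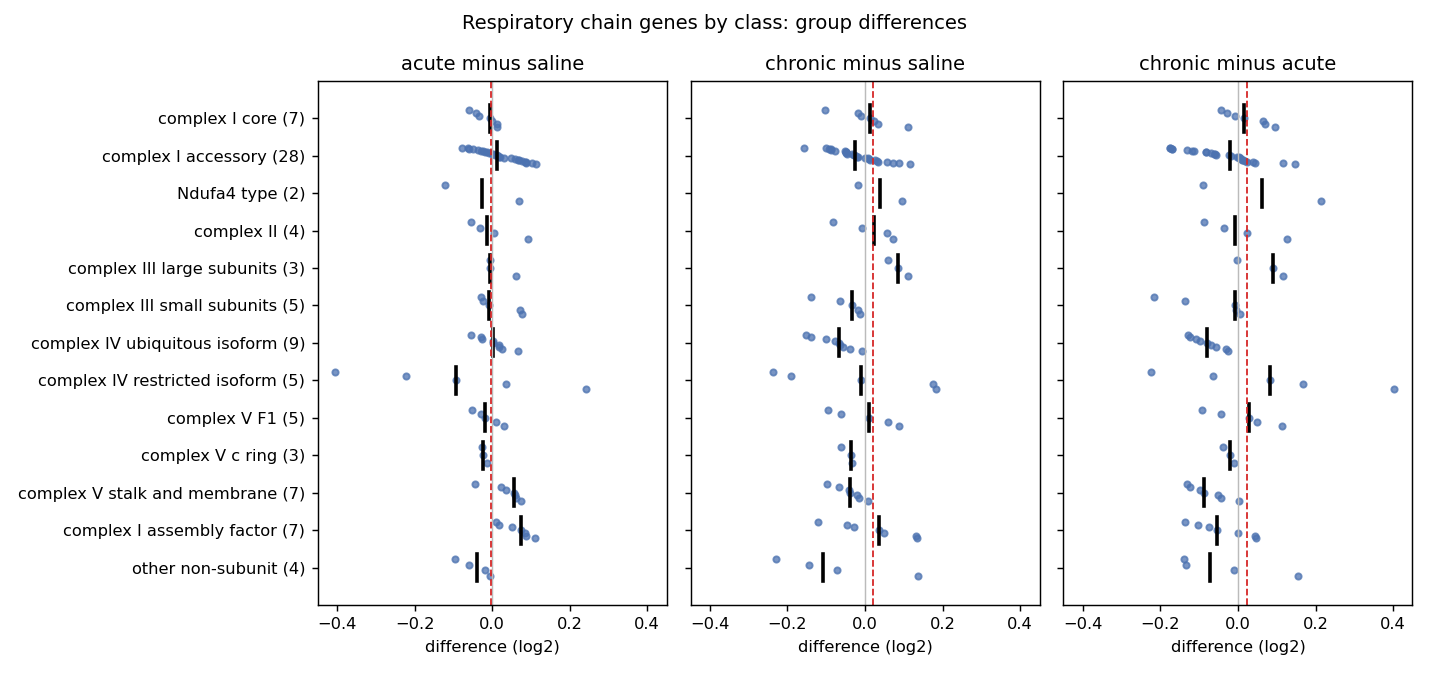
Differences between group means (log2) for each of the 89 respiratory chain genes, 1 point per gene, by class, with the number of genes in brackets; black bars are class medians and the dashed line is the median of all 20902 genes. All 9 ubiquitous complex IV isoforms lie below 0 in both comparisons of the chronic group, as 43.5% of all genes do in each. The restricted isoforms are the most scattered class.

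The counts also differed between slides. Within slide 1, 65 members were below 0 in chronic minus saline (median -0.141), but 38 were on slide 2 (median 0.038) and 36 on slide 3 (median 0.029). For acute minus saline the counts were 64, 49 and 30 on slides 1, 2 and 3, with medians of -0.066, -0.020 and 0.087. For chronic minus acute they were 62, 31 and 68, with medians of -0.053, 0.033 and -0.054. Over all genes the counts below 0 ran otherwise. In chronic minus saline they were 8404, 10196 and 11776 of 20902 on slides 1, 2 and 3, with medians of 0.061, 0.0093 and -0.045, and in acute minus saline 10113, 9767 and 11421. In chronic minus acute they were 8569, 10464 and 10486. No comparison had its member median on the same side of 0 on all 3 slides. The saline arrays differed most between slides. The number of members above their own mean over the 24 arrays was 57, 70 and 70 on the 3 saline arrays of slide 1, 47, 38 and 26 on those of slide 2, and 37 and 23 on those of slide 3. It ran from 31 to 63 on the acute arrays, with a median of 50, and from 32 to 67 on the chronic arrays, with a median of 39.5. With slide as a block in the fit, 39, 55 and 52 members were below 0 in acute minus saline, chronic minus saline and chronic minus acute, and 0 passed the adjusted threshold.

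**Figure D2:**
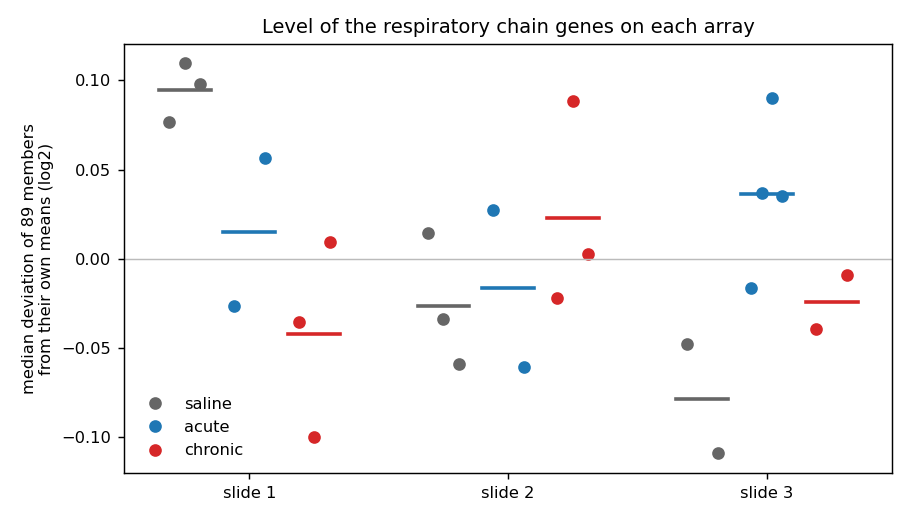
Median deviation (log2) of the 89 members from their own means over 24 arrays, 1 point per array, by slide and treatment group; horizontal bars are means. The 3 saline arrays of slide 1 lie between 0.077 and 0.110, whereas both saline arrays of slide 3 lie below 0, at -0.048 and -0.109.

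Complex I takes electrons from NADH in its peripheral arm, where the core subunits carry the flavin and the iron-sulphur clusters. Among the 7 nuclear core subunits, 5 differences were below 0 in acute minus saline, 3 in chronic minus saline and 3 in chronic minus acute, and none passed at an unadjusted p below 0.05. Over all genes 50.9%, 43.5% and 43.5% were below 0 in these comparisons. Ndufs1, which holds iron-sulphur clusters near the entry of electrons, differed by 0.01 between chronic and acute samples (SE 0.06). Ndufv1, which binds the flavin and NADH, differed by -0.03 (SE 0.06). Ndufv2, its partner in the NADH-binding module, had the narrowest range of all members, 0.26 on the log2 scale over 24 arrays. Ndufs7, which lies near the site where ubiquinone is reduced, differed by 0.03 in chronic minus saline (SE 0.10).

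The 28 accessory subunits of complex I form its scaffold and take no direct part in electron transfer. In chronic minus acute 16 were below 0, with a median of -0.020, where 43.5% of all genes were below 0. Ndufb8 and Ndufa7, 2 of these 16, passed at an unadjusted p below 0.05, as 2.48% of all genes did. Ndufb8 is a small subunit of the membrane arm, and its probe lies at chr1:249597409-249597468 of rn4, the build of the file headers. Its lowest, median and highest arrays were 4.67, 5.09 and 5.27 in saline, 4.91, 5.02 and 5.17 in acute and 4.72, 4.84 and 5.18 in chronic rats. The chronic median was the lowest, but single chronic arrays reached the top of the acute range. Sample means were 5.03 ± 0.15, 5.04 ± 0.08 and 4.87 ± 0.10 in that order (SD, n = 6 each). Chronic minus acute was -0.17 (SE 0.08, 95% interval -0.33 to -0.01, adjusted p = 0.960), and chronic minus saline was -0.16 (SE 0.08). Its chronic minus acute difference was -0.16, -0.10 and -0.10 on slides 1, 2 and 3, but chronic minus saline was -0.39, -0.15 and 0.22. Ndufa7, singled out after its values were seen because it completes the 4 members past the unadjusted threshold, had a chronic minus acute difference of -0.17 (SE 0.08, adjusted p = 0.960). A second kept probe for Ndufa7 gave 0.003. The members with the smallest p above 0 in acute minus saline included Ndufa6 at 0.10 (SE 0.07) and Ndufb3 at 0.11 (SE 0.09), both accessory subunits, and the smallest below 0 included Ndufa12 at -0.06 (SE 0.06).

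Assembly factors help to build complex I and leave it when it is complete. All 7 Ndufaf genes had acute minus saline differences above 0, with a median of 0.075 and none past an unadjusted p of 0.05, while 50.9% of all genes were below 0. With chronic minus acute, 2 of 7 were above 0. On slides 1, 2 and 3 alone, 5, 1 and 1 of 7 were below 0 in acute minus saline, with medians of -0.019, 0.140 and 0.093, so slide 1 went the other way. The acute minus saline count was 4 of 7 above 0 with normexp background correction, and 6 of 7 with quantile normalization. Ndufaf4 and Ndufaf1 had the smallest p above 0 in chronic minus saline, with differences of 0.13 (SE 0.08) and 0.13 (SE 0.08). For Ndufaf4, 3 probes were kept, and the 2 not used gave -0.19 (SE 0.28) and -0.08 (SE 0.11) in chronic minus saline. In acute minus saline they gave 0.13 (SE 0.28) and -0.14 (SE 0.11). The value for Ndufaf4 and the 7 of 7 above 0 in acute minus saline therefore also rest on the choice of probe.

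Complex II is encoded wholly in the nucleus. Sdha carries the flavin that oxidises succinate, Sdhb the iron-sulphur clusters, and Sdhc and Sdhd anchor both in the membrane. Sdha was the member with the smallest p above 0 in chronic minus acute (probe at rn4 chr1:29763988-29764047). Its lowest, median and highest arrays were 1.67, 1.89 and 2.01 in saline, 1.69, 1.86 and 2.02 in acute and 1.81, 1.97 and 2.10 in chronic rats. The chronic arrays lay slightly higher and the groups overlapped, with sample means of 1.84 ± 0.05 (acute) and 1.97 ± 0.08 (chronic; SD, n = 6 each). The difference was 0.13 (SE 0.06, 95% interval -0.003 to 0.25, adjusted p = 0.960), and it was above 0 on each slide, at 0.06, 0.04 and 0.18. Sdhb, Sdhc and Sdhd differed by 0.02 (SE 0.07), -0.09 (SE 0.11) and -0.04 (SE 0.08) in the same comparison. The 4 subunits of the complex thus split evenly about 0. Sdhd had a difference of 0.09 (SE 0.08) in acute minus saline.

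Complex III joins a few large subunits, of which Uqcrfs1 is the Rieske iron-sulphur protein and Uqcrc1 and Uqcrc2 are the core proteins, with several small ones. The 3 large subunits had chronic minus saline differences of 0.11 (SE 0.08) for Uqcrfs1, 0.09 (SE 0.09) for Uqcrc1 and 0.06 (SE 0.07) for Uqcrc2. The 5 small subunits all had differences below 0 in that comparison, with a median of -0.033, where 43.5% of all genes were below 0. On slide 3 alone these directions turned, with 3 of 3 large subunits below 0 (median -0.031) and 1 of 5 small ones (median 0.075). The difference between these classes was not tested. Second kept probes gave chronic minus saline differences of 0.23 (SE 0.17) for Uqcr11 and 0.11 (SE 0.11) for Uqcrq, where the probes used gave -0.02 and -0.14. The 5 of 5 small subunits below 0 therefore also rests on the choice of probe. Uqcrq, a small subunit next to cytochrome b, had the smallest p of any member in chronic minus acute (probe at rn4 chr10:38890297-38890356). Its lowest, median and highest arrays were 3.81, 4.24 and 4.44 in saline, 3.86, 4.24 and 4.37 in acute and 3.71, 4.02 and 4.38 in chronic rats. The chronic median was below the other two and the ranges overlapped almost fully. Sample means were 4.14 ± 0.19 (saline), 4.22 ± 0.12 (acute) and 4.00 ± 0.09 (chronic; SD, n = 6 each). Chronic minus acute was -0.22 (SE 0.09, 95% interval -0.40 to -0.03, adjusted p = 0.960). The difference was -0.13, -0.13 and -0.19 on slides 1, 2 and 3. Acute minus saline, in contrast, was -0.34, 0.04 and 0.47 on the same slides, with saline means of 4.35, 4.18 and 3.82. A second kept probe for Uqcrq gave a chronic minus acute difference of 0.12 (SE 0.11), of the opposite sign. Both probes had signs opposite to each other in all 3 comparisons, so the value for Uqcrq rests on the choice of probe.

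Complex IV holds several subunits that exist as tissue isoforms. The 9 ubiquitous ones (Cox4i1, Cox5a, Cox5b, Cox6a1, Cox6c, Cox7a2, Cox7b, Cox7c and Cox8a) are those found in most tissues including brain. All 9 had differences below 0 in chronic minus acute, with a median of -0.080, and in chronic minus saline, with a median of -0.067, but none passed at an unadjusted p below 0.05. Over all genes 43.5% were below 0 in each of these comparisons, and 2.48% and 2.87% passed. In acute minus saline 3 of 9 were below 0, with a median of 0.002. The largest of the 9 in chronic minus acute were Cox7a2 at -0.13 (SE 0.08) and Cox6a1 at -0.12 (SE 0.07). Cox4i1, the regulatory subunit that can bind ATP, differed by -0.07 (SE 0.07) both from saline and from acute samples in the chronic group, and Cox5a, Cox5b and Cox8a differed by -0.10 (SE 0.13), -0.03 (SE 0.07) and -0.08 (SE 0.07) between chronic and acute. The count of 9 of 9 was not kept under other scalings. In chronic minus acute it was 6 of 9 with quantile normalization, with or without normexp, and 5 of 9 with the authors' deposited value table, and in chronic minus saline 7, 6 and 4 of 9 with quantile normalization, normexp with quantile normalization and the authors' table. With array weights 6 of 9, and with the title letter as a random block 5 of 9, were below 0 in chronic minus acute. On slides 1, 2 and 3 alone it was 8, 3 and 9 of 9 in chronic minus acute. In chronic minus saline it was 9, 4 and 2 of 9, with medians of -0.241, 0.0087 and 0.169, so the direction against saline turned between slides. Cox7c, a small subunit, had a second kept probe with a chronic minus saline difference of 0.08 (SE 0.10), where the probe used gave -0.14, and with -0.0019 in chronic minus acute. The 9 of 9 against saline therefore also rests on the choice of probe. Without saline replicates 4 and 5 and chronic replicate 8 it was 9 of 9 in both comparisons of the chronic group.

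The restricted isoforms were the most variable class. They are Cox4i2, known from lung, Cox6a2 and Cox8b, known from heart and skeletal muscle, and Cox6b2 and Cox7b2, known from testis. Their median SD over the 24 arrays was 0.482, and that of the ubiquitous isoforms was 0.141. Over all members the median SD was 0.150 and over all genes 0.278. Among genes well above background on every array it was 0.148 for 86 members and 0.225 for 14163 genes, and whether the brightness of the probes accounts for this was not tested. Cox4i2 (probe at rn4 chr3:143114177-143114236) had arrays at -0.58, -0.20 and 0.24 (lowest, median, highest) in saline, -0.42, -0.22 and 0.03 in acute and -0.55, -0.44 and -0.15 in chronic rats. The chronic median lay lowest, and the range of the saline arrays covered that of the chronic ones. The sample means were -0.24 ± 0.24 (saline), -0.20 ± 0.13 (acute) and -0.43 ± 0.11 (chronic; SD, n = 6 each). Chronic minus acute was -0.22 (SE 0.10, 95% interval -0.44 to -0.01, adjusted p = 0.960) and chronic minus saline -0.19 (SE 0.10). Chronic minus acute was -0.27, -0.04 and -0.26 on slides 1, 2 and 3, but chronic minus saline was -0.56, 0.0039 and 0.07.

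Cox8b (probe at rn4 chr1:201057325-201057384) had the widest range of all members, 3.58 on the log2 scale. Its lowest, median and highest arrays were -4.44, -3.87 and -2.21 in saline, -4.65, -4.03 and -3.79 in acute and -4.75, -4.16 and -1.17 in chronic rats. A few single arrays stood high, and the medians of the groups lay close together. The 4 highest arrays were chronic replicate 8 at -1.17 and saline replicates 5, 4 and 3 at -2.21, -2.79 and -3.27. The mean level of 9 choroid plexus and ependyma markers on those 4 arrays was -0.71, -0.22, -0.96 and -1.04, the 4 highest of the 24 arrays, and the next highest was -1.98. Acute minus saline was -0.41 (SE 0.33, 95% interval -1.09 to 0.28). The part of choroid plexus tissue in the level of Cox8b was not tested.

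Cox6a2 ranged over 3.11 on the log2 scale, or 8.65-fold, with arrays at -4.19, -3.10 and -1.53 in saline, -4.64, -2.87 and -1.53 in acute and -3.69, -2.53 and -1.56 in chronic rats. High and low arrays were found in every group. Chronic minus acute was 0.40 (SE 0.42, 95% interval -0.47 to 1.28), an interval wider than 1.5-fold in the upward direction. A second probe gave 0.42 (SE 0.42). The lowest array of Cox6a2, acute replicate 4 at -4.64, had a mean level of 9 cortical excitatory neuron markers of -2.68. The highest arrays, acute replicate 6 and saline replicate 3, both at -1.53, had cortical levels of -1.83 and -1.18. The arrays with the lowest cortical levels were saline replicates 5 and 4 and chronic replicate 8, at -4.43, -4.20 and -4.10. They had Cox6a2 at -3.95, -3.47 and -3.46, where the group medians were -3.10 in saline and -2.53 in chronic rats. All 9 cortical markers were above 0 in chronic minus acute, with a median of 0.21. The part of cortical tissue in these levels was not tested. Ndufa4l2, a relative of Ndufa4 known to be induced by hypoxia, had the third widest range, 1.96. Its arrays were at -5.01, -4.68 and -3.76 in saline, -5.72, -4.58 and -4.36 in acute and -4.75, -4.47 and -3.79 in chronic rats, and chronic minus acute was 0.22 (SE 0.15). Ndufa4 itself differed by -0.09 (SE 0.09).

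**Figure D3:**
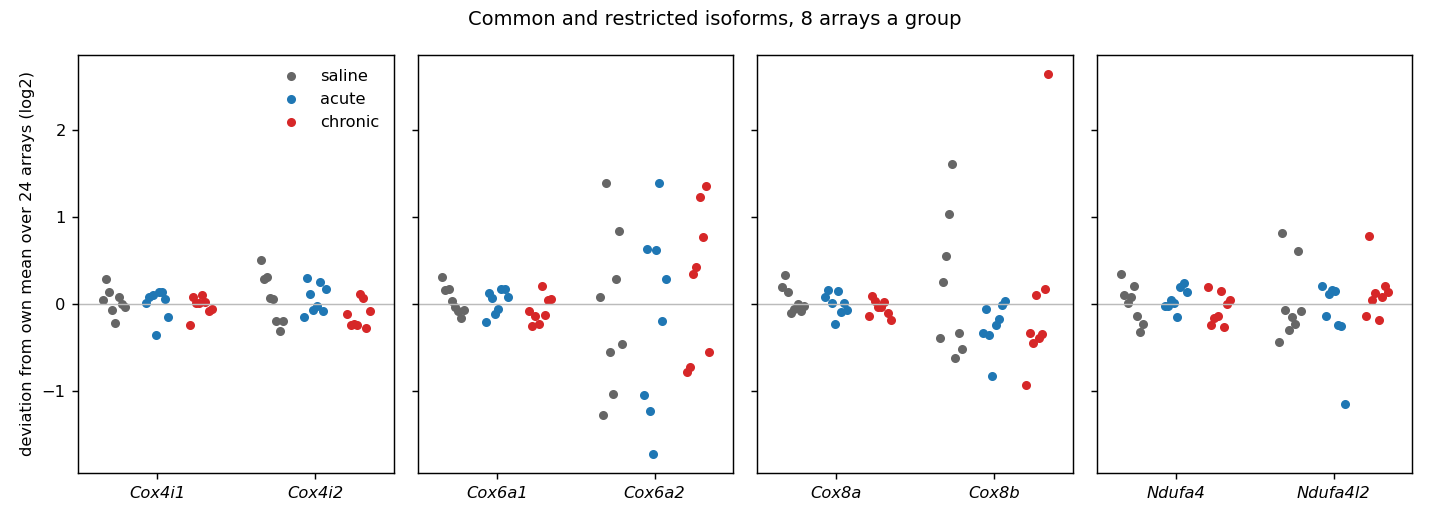
Deviation of each array from the gene's own mean over 24 arrays (log2) for common and restricted forms of complex IV subunits and for Ndufa4 and Ndufa4l2, 8 arrays per group. Cox6a2 and Cox8b spread over 3.11 and 3.58 on this scale without a separation of the groups, and their common partners Cox6a1 and Cox8a over 0.56 and 0.57.

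**Figure D4:**
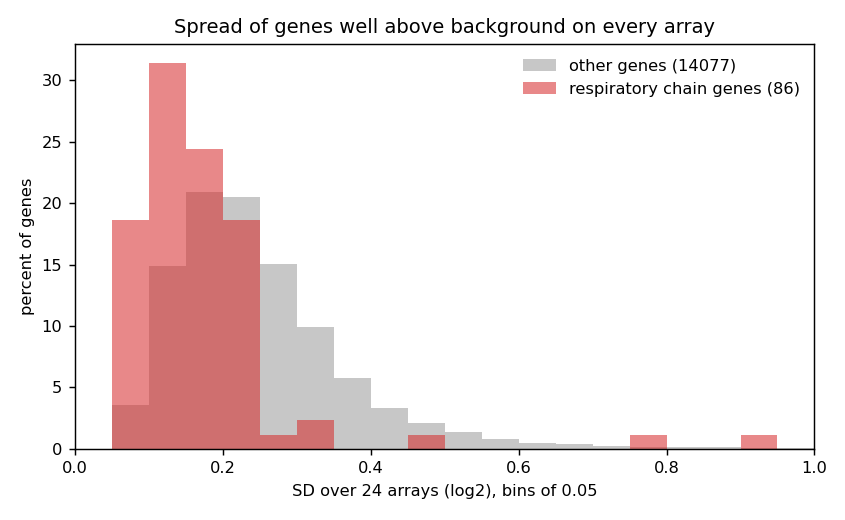
SD over the 24 arrays (log2, bins of 0.05) of 86 respiratory chain genes and of the other genes well above background on every array, as percent of each set; the axis ends at 1. The respiratory chain genes peak at lower SD, with a median of 0.148.

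The promoters of these genes are known for binding sites of NRF-1, of the ETS factor GABP and of YY1, which drive many respiratory chain genes together. RefSeq promoters of the build GRCr8, 250 bases before to 50 after the start, were found for 76 of the 89 members, which were matched by symbol for 72 and by an older symbol for 17. They were searched on both strands for GCGCA and GCGC with any 1 base between them (NRF-1), CCGGAAG (GABP) and AANATGGC (YY1), where N is any base. Matches of different motifs could overlap, and a match on both strands at 1 position was counted once. NRF-1 letters were found in 16 member promoters (21.1%) against 4.6% of 27457 promoters of the same length, GABP letters in 20 (26.3%) against 9.14% and YY1 letters in 29 (38.2%) against 7.35%. At least 1 of the motifs was found in 51 (67.1%) against 18.6%. Among 19005 protein-coding promoters, a closer background, the shares were higher, at 5.95% for NRF-1, 11.1% for GABP, 8.02% for YY1 and 21.8% for any. Among 7 promoters of ubiquitous complex IV isoforms, 5 held a match, and among 4 of restricted isoforms 1 did, that of Cox7b2. The median GC content was 57% for the members, 55.3% for protein-coding promoters and 52.3% for all promoters, and its part in the counts was not tested.

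Promoters of some ubiquitous and restricted isoforms of complex IV were picked as examples and do not stand for their classes. Of the isoforms not printed, ubiquitous Cox5a and Cox7c held no match and restricted Cox7b2 held 1. Cox4i2 and Cox6a1 had no promoter entry. Uqcrq and Sdha, which led chronic minus acute in either direction, were added. The promoters printed cover the 110 bases before and 30 after the start, 5′ to 3′ on the gene's strand, with motif matches in capitals. They are Cox4i1 (GRCr8 chr19:65630273-65630412, plus strand), Cox8a (chr1:213833594-213833733, minus strand), Cox8b (chr1:205408244-205408383, minus strand), Cox6a2 (chr1:192219687-192219826, minus strand), Uqcrq (chr10:38089949-38090088, minus strand) and Sdha (chr1:30764443-30764582, plus strand).
Cox4i1: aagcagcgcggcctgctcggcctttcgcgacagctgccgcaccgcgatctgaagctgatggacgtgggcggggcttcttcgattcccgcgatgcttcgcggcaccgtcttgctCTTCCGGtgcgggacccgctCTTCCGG
Cox8a: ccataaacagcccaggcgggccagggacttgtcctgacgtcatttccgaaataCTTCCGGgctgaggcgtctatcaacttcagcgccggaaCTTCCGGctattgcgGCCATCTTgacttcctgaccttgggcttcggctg
Cox8b: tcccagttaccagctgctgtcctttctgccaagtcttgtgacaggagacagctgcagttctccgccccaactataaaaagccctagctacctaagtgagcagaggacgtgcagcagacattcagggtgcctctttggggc
Cox6a2: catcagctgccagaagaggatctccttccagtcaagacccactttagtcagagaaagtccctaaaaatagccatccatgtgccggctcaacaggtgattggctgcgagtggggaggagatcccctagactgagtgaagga
Uqcrq: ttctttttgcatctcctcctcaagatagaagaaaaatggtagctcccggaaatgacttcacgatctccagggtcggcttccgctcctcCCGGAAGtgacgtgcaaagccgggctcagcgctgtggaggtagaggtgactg
Sdha: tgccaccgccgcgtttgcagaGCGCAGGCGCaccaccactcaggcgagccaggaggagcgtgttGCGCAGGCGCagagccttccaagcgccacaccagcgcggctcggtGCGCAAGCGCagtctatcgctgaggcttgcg
Cox4i1 held 2 GABP matches and Cox8a 2 GABP matches and 1 YY1 match, while Cox8b and Cox6a2 held none in the whole window. Uqcrq held 1 GABP match. Sdha held 3 NRF-1 matches, and a YY1 match 38 bases after its start that lies beyond the printed bases. A match is a description of letters and no evidence that a factor is bound in these rats.

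Complex V is made of the F1 head, where ATP is formed, a stalk and membrane part, and the c ring. The 5 F1 subunits had 2 differences below 0 in chronic minus acute, with a median of 0.028. Atp5a1, the alpha subunit, and Atp5b, the catalytic beta subunit, differed by -0.09 (SE 0.07) and 0.05 (SE 0.09). Atp5c1, the gamma subunit that forms the rotating shaft, differed by 0.11 (SE 0.08), and its sample means were 2.09 ± 0.17 (saline), 2.07 ± 0.07 (acute) and 2.18 ± 0.13 (chronic; SD, n = 6 each). The stalk and membrane subunits had 6 of 7 differences below 0 in chronic minus acute (median -0.088) and 6 of 7 above 0 in acute minus saline (median 0.057). Over all genes the shares were 43.5% below 0 and 49.1% above 0 in that order. On slides 1, 2 and 3 alone, 6, 4 and 0 of 7 were below 0 in acute minus saline, with medians of -0.146, -0.024 and 0.227, and 7, 2 and 6 in chronic minus acute. The direction of this class thus turned between slides. For Atp5h, of the same class, a second kept probe gave -0.05 (SE 0.05) in acute minus saline, where the probe used gave 0.06. The 6 of 7 above 0 therefore also rests on the choice of probe. Atp5o, which ties the stalk to the head, differed by -0.05 (SE 0.07) and 0.06 (SE 0.07) in these 2 comparisons. Atp5f1, the b subunit of the stalk, had a range of 0.31 over the 24 arrays and Ndufaf5 of 0.29, which with Ndufv2 were the narrowest. Atp5g1, Atp5g2 and Atp5g3 encode the same mature c subunit. All 3 were below 0 in each comparison, with differences between -0.04 and -0.01 in chronic minus acute (SE 0.07 to 0.09), well within the spread between samples. The other kept probes of Atp5g2 gave 0.05, 0.05 and -0.16 in chronic minus acute and were not all below 0 in any comparison. The 3 of 3 therefore also rests on the choice of probe. On slide 2 alone 0 of 3 were below 0 in chronic minus saline (median 0.155) and in chronic minus acute (median 0.202). Of the non-subunits, Atp5sl had the third smallest p above 0 in chronic minus acute, at 0.15 (SE 0.11).

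**Figure D5:**
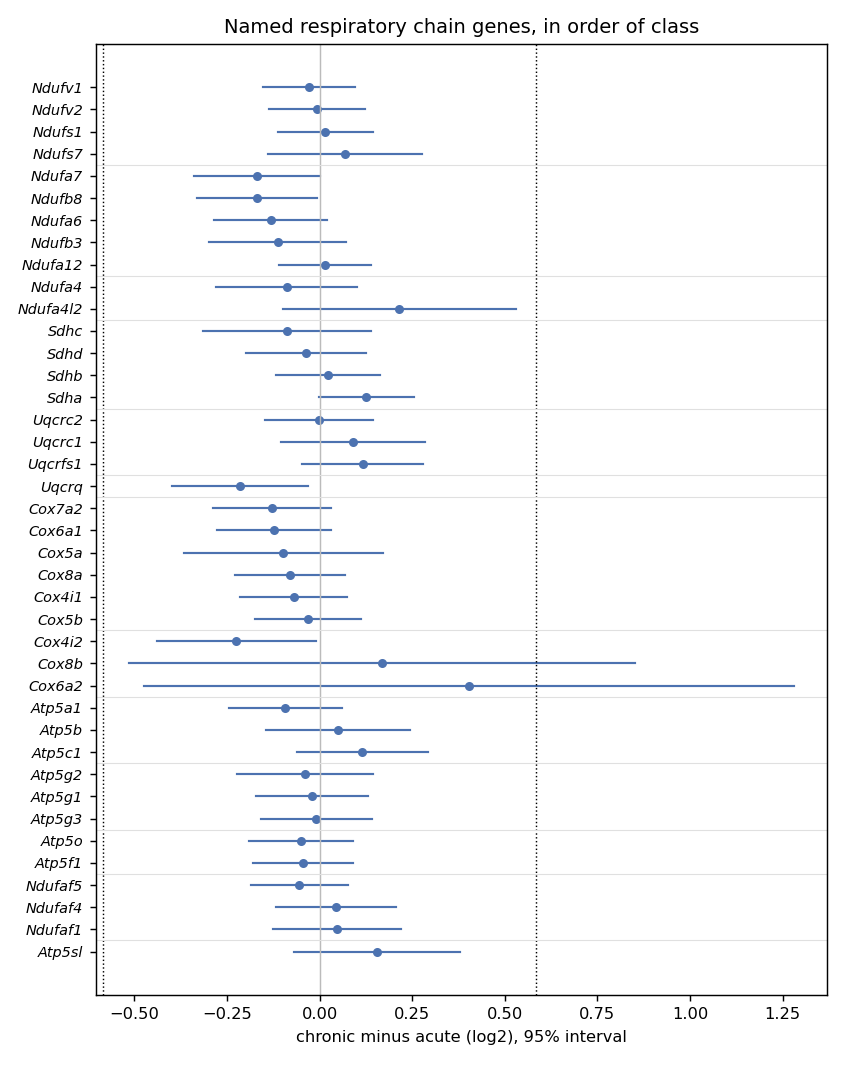
Chronic minus acute differences (log2) of 40 named respiratory chain genes with 95% intervals from the limma fit, ordered by class; dotted lines mark 1.5-fold in either direction. Only Cox6a2 and Cox8b have intervals that cross the dotted lines, and Uqcrq, Cox4i2, Ndufb8 and Ndufa7 have intervals below 0.

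The probes of a gene did not always match in direction. Of the 89 members, 25 had more than 1 kept probe, and the signs of their probes were opposite for 12 in acute minus saline, 9 in chronic minus saline and 7 in chronic minus acute. The widest gap between probes of a gene was 0.41 on the log2 scale, for Ndufb3 in chronic minus acute. Besides Uqcrq and Ndufa7, Ndufb4 had 3 kept probes with chronic minus acute differences of -0.18, -0.15 and 0.05, and Atp5g2 had 4, from -0.16 to 0.05.

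Genes that feed or build the chain gave 0 calls after adjustment as well. The tricarboxylic acid cycle and pyruvate dehydrogenase list, which delivers the electrons, had 22 measured genes, of which 14 were above 0 in chronic minus acute (median 0.069) and 8 below 0, where 43.5% of all genes were below 0. In that comparison Idh3a, a subunit of NAD-linked isocitrate dehydrogenase, differed by 0.29 (SE 0.14) and Sucla2, of succinyl-CoA ligase, by 0.18 (SE 0.08). Of 22 glycolysis genes 16 were above 0 (median 0.076), where 56.5% of all genes were, among them the neuronal enolase Eno2 at 0.17 (SE 0.08). Of 32 other assembly factors of the chain 13 were above 0, and the smallest p were those of Taco1, needed to translate a mitochondrial subunit of complex IV, at 0.24 (SE 0.09), and of the complex II factor Sdhaf3 at -0.15 (SE 0.07). Of 22 protein import genes 17 were below 0 (median -0.036), with Timm8b at -0.18 (SE 0.08). Of 17 genes of mitochondrial biogenesis 12 were above 0 in chronic minus saline (median 0.089), where 56.5% of all genes were. Among the 17, the coactivator Ppargc1b was at 0.25 (SE 0.12), while the related Pprc1 was at -0.17 (SE 0.07). All these genes had an adjusted p of 0.960 or above. Electron carriers (16 genes), carriers of the inner membrane with the outer membrane channel (14) and fusion and fission genes (21) had medians between -0.003 and 0.040 in chronic minus acute.

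Cytosolic ribosomal protein genes, short and abundant transcripts, are given for comparison. Of 87 measured, 81 were below 0 in chronic minus acute (median -0.117) and 82 in chronic minus saline (median -0.102), and 57 were above 0 in acute minus saline. Over all genes 43.5% were below 0 in each comparison of the chronic group, and 49.1% were above 0 in acute minus saline. In chronic minus acute 7 of the 87 passed at an unadjusted p below 0.05, as 2.48% of all genes did, and 0 passed after adjustment. Rpl19, 1 of the 7, was at -0.25 (SE 0.09). Of 69 mitochondrial ribosomal protein genes 41 were below 0 in chronic minus acute (median -0.014). On slides 1, 2 and 3 the saline arrays had a mean cytosolic ribosomal deviation of 0.116, 0.075 and -0.155, and the ubiquitous complex IV isoforms had 0.209, -0.014 and -0.091. The part of this in the members' differences was not tested.

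The dissections were checked with marker genes. All 16 measured markers of striatal projection neurons were well above background on every array, with a mean level between 1.56 and 3.31 in saline, 2.37 and 3.15 in acute and 2.18 and 3.01 in chronic rats. Marker differences leaned 1 way within several lists, but the array levels of the groups overlapped and 0 genes passed after adjustment. Markers of the same tissue are not independent of each other, and the lists were not tested as sets. Over all genes 49.1% were above 0 in acute minus saline and 56.5% in chronic minus saline. The striatal markers were above 0 for 16 of 16 genes in acute minus saline (median 0.24) and 15 of 16 in chronic minus saline (median 0.14). Oligodendrocyte markers were below 0 for 14 and 13 of 14 genes in these comparisons, and cortical markers above 0 for 9 of 9 in chronic minus saline (median 0.54). All 9 choroid plexus and ependyma markers and all 7 hypothalamic markers were below 0 in both comparisons with saline, with medians of -0.89 and -0.72 in acute minus saline and -1.09 and -1.01 in chronic minus saline. Only 4 of these 9 and 3 of these 7 were well above background on every array, as were 6 of the 9 cortical markers. The levels of these lists thus rest partly on signals near background. Saline replicate 4 had the lowest striatal level, 1.56, and the highest hypothalamic level, -0.07, and the cortical level was lowest on saline replicates 4 and 5 and chronic replicate 8, at -4.20, -4.43 and -4.10. Without those 3 arrays 44, 64 and 54 members were below 0 in acute minus saline, chronic minus saline and chronic minus acute, with medians of 0.004, -0.032 and -0.036, and 0 members passed after adjustment.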

How the data were processed

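Total RNA of the left dorsal striatum was hybridised to 24 Agilent single-colour arrays. Spot intensities were deposited as background-subtracted and spatially detrended signals from Agilent Feature Extraction 10.7, per the submitters' processing notes and the file headers, with no scaling between arrays. The authors' deposited value table holds log2 values of the same arrays with near-identical distributions, and how they were made is not given in the sources used here.

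Each array's log2 signal was centred on its 75th percentile over 58717 non-control spots, spots flagged as outliers were left out, and spots of a probe were averaged. Of 45598 probes, 26259 passed the filter. Arrays sharing a title letter from A to F were averaged and those titled H were kept single, which gave 18 samples. The groups were fitted together with limma 3.58.1 in R 4.3.3 (lmFit and eBayes), which gives the SEs, intervals and p-values. The number of arrays limits the precision. Replicates are numbered in accession order and pair nothing. The fit was tested on simulated data over 20902 genes, with independent arrays and no slide effect, unlike the real arrays. In chronic minus saline it called 54 of 100 genes changed 1.5-fold, 71 of 100 changed 2-fold and 7 unchanged genes. In chronic minus acute it called 46, 72 and 5. The changed genes were drawn from all genes, whose median SE in the real fit was 0.139, against 0.077 for the members.

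Members and gene lists were chosen with earlier results of these data known. The genes named are the members with the smallest p in each direction and comparison, the catalytic or best known subunits of each complex, isoform pairs, the widest and narrowest ranges, genes whose probes differ in sign, those at the edge of the filter, and the genes with the smallest p in each pathway list. Other scalings, filters, probe rules, blocks, weights and left-out arrays were tried. Leaving out saline replicate 4, or saline replicates 4 and 5 with chronic replicate 8, was chosen after seeing the data. Some genes the rule names are not reported here.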

Additional observations from a re-analysis of the deposited data

Results flagged for a closer look

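Of 117 tests of 39 named members in the 3 groups, 6 had a single array far from the other 7 of its group (Dixon's criterion). Chance gives about 1 in 20, and the count is near that share. Some members, Cox8b among them, were named for their range or p-values on these same arrays, so that share need not hold for them. Cox8b was high on chronic replicate 8, at -1.17 with the nearest array at -3.65, and low on acute replicate 4, at -4.65 with the nearest at -4.18. Ndufa4l2 was low on acute replicate 8, at -5.72 (nearest -4.82), and high on chronic replicate 2, at -3.79 (nearest -4.36). Sdhd was high on chronic replicate 1, at 2.28 (nearest 2.06). Atp5c1 was high on saline replicate 7, at 2.42 (nearest 2.14).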

How the results depend on the processing

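No member passed an adjusted p of 0.05 in any comparison under any alternative, and the smallest adjusted p of a named member was 0.911, 0.373 and 0.190 in acute minus saline, chronic minus saline and chronic minus acute. On single slides, acute minus saline had 64 members below 0 on slide 1 and medians of -0.066 and 0.087 on slides 1 and 3. Chronic minus saline had medians of -0.141, 0.038 and 0.029 on slides 1, 2 and 3, with 36 members below 0 on slide 3. Chronic minus acute had 31 members below 0 on slide 2, with a median of 0.033. The cause was not tested. With each sample left out in turn, 29 to 50, 51 to 62 and 51 to 64 members were below 0, with medians from -0.0067 to 0.019, -0.042 to -0.0090 and -0.045 to -0.015. No paired analysis was possible because the labels carry no replicate numbers that are shared between groups. Signal near background limits Cox7b2.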
